A study of Sus scrofa with 12 samples.

Results

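Solute carriers are membrane proteins that move small molecules and ions across the plasma membrane and the membranes of organelles. Genes for them were followed here in interstitial cells cultured from the aortic valve of the pig (Sus scrofa), which resemble fibroblasts and build the matrix of the leaflet. The deposited gene table held 240 rows whose gene name follows the solute carrier pattern (SLC, a family number, A and a member number), with the phosphate carriers SLC20A1 and SLC20A2 left out. Of these rows, 133 reached an RPKM of at least 1 in at least 3 of the 12 libraries and are the members described below. RPKM is a read count divided by exon length and library total, so levels of different genes can be compared. The other 107 rows stayed below that level. All genes were filtered in the same way, which left 13046 of the 22861 genes in the table for testing.

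The RNA of 12 cultures was sequenced, and 3 biological replicates fall into each of 4 groups. All cells were labelled as pAVICs and grown in DMEM on glass, which the labels name as the stimulus for calcification. Stage 1 cells were taken at day 5 and Stage 2 cells at day 8. Stage 3+KPT cells received KPT at Stage 3, and Stage 3+DMSO cells received DMSO at the same stage. The labels do not say on which day the Stage 3 libraries were taken, what KPT is, at which dose or for how long it was given. They also leave unsaid whether replicates came from separate animals, so p-values measure the spread between cultures, which may be technical. The library totals implied by the RPKM values lay between 13188023 and 24724019.

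A cell takes up amino acids, sugars, nucleosides, vitamins and ions through these carriers, and the same families fill lysosomes, the Golgi and mitochondria with their substrates. Families are numbered by sequence, so 1 family can hold carriers with different substrates: SLC1, for example, holds both glutamate carriers and exchangers of neutral amino acids. Several amino acid carriers are textbook targets of the amino acid stress response, and the carriers of lactate, zinc, iron, sulphate and CMP-sialic acid serve the energy use, metal supply and matrix glycosylation of connective tissue cells.

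By substrate, 20 members were put into an amino acid and peptide class, 14 into a sugar and polyol class, 34 into an ion and metal class and 31 into the mitochondrial carrier family SLC25. A further 14 carry monocarboxylates and other organic ions, 8 carry nucleosides or nucleotide sugars and 9 carry vitamins, lipids or choline. The remaining 3 (SLC4A1AP, SLC9A3R1 and SLC9A3R2) bear a carrier's name but are adaptor proteins, not transporters. The members spanned a wide range of levels. The mean RPKM over the 12 libraries was 0.585 for the lowest member, 14.5 for the median member and 839 for the highest, which was SLC25A3, the mitochondrial phosphate carrier. In 114 of the 133 members (85.7%) the RPKM was at least 1 in every library. The members were thus chosen by their RPKM levels over all 12 libraries, and the threshold shapes the list. Just inside it lay SLC29A4, SLC7A4, SLC6A15 and SLC5A10, whose third-highest RPKM was 1.06, 1.08, 1.27 and 1.39. Just outside lay SLC47A2, SLC46A3, SLC16A8 and SLC12A5, with 0.977, 0.917, 0.883 and 0.871. For 5 members (SLC6A15, SLC16A14, SLC16A6, SLC16A9 and SLC29A4) an RPKM of at least 1 occurred in Stage 3+KPT libraries only. These 5 entered the list through the group in which they are high, so they had to differ there.

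Some names are uncertain. SLC1A4, SLC7A1, SLC26A11, SLC2A13, SLC39A7 and SLC46A1 each have a second gene ID with the same symbol, so their reads may be split between the IDs or counted under both. In a separate table of IDs and symbols, the ID listed as SLC25A11 is named PFN1 and the one listed as SLC25A6 is named SLC25A5. The exons of SLC39A7 overlap those of its second ID on the same strand, by 86.5% of the member's length. The exons of 7 members overlap those of another gene on the opposite strand, by 8.3% of their length for SLC2A12 and by up to 36.6% for SLC41A3. Whether reads were counted by strand is not stated, so reads of such pairs cannot be told apart. SLC7A11, SLC7A5, SLC6A9, SLC2A1, SLC2A3, SLC11A2 and SLC48A1 were not found by name in the gene table and were not analysed here. SLC25A5 was not found by name either, but may be the member listed as SLC25A6.

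Cells labelled as valve interstitial had high levels of mesenchymal genes such as those for collagens, vimentin and fibronectin. The summed RPKM of that marker list was 24236 to 25668 at Stage 1, 33693 to 34694 at Stage 2, 21430 to 22100 in Stage 3+KPT and 32091 to 33889 in Stage 3+DMSO. Of its 13 IDs, 3 were higher and 6 lower with KPT than with DMSO, beside 30.5% and 29.5% of all genes. COL1A2 averaged 3989 RPKM with KPT and 8569 with DMSO, whereas POSTN averaged 2872 with KPT and 1068 with DMSO. Of 9 endothelial marker IDs found, 6 passed the level filter, with a summed RPKM over the 9 of 35.3 to 40.7 in Stage 3+KPT, against 67.5 to 86.5 in Stage 3+DMSO. The endothelial genes VWF, KDR and TEK were below the filter, and most of the sum was ERG. PECAM1, TIE1, ESAM, NOS3 and EMCN passed the filter beside ERG. Of these 6, ERG, PECAM1 and TIE1 were lower with KPT than with DMSO and 0 were higher. PECAM1 averaged 5.67 RPKM with KPT and 8.00 with DMSO. Leukocyte markers summed to between 10.8 and 15.6 RPKM in every library, and cardiomyocyte markers to at most 1.94. Fewer cells of a type and less RNA per cell cannot be told apart in such bulk samples, and the part of these marker shifts in the results below was not tested.

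Between Stage 1 and Stage 2 about as many carriers rose as fell. Tests used limma on log2(RPKM + 1) over all 13046 genes, with Benjamini-Hochberg adjustment and a threshold of 0.05, and fold changes are on that scale, which understates changes of low genes. At Stage 2, 32 members were higher and 30 lower than at Stage 1, or 46.6% of the 133, where 40.7% of all genes tested passed, 16.3% higher and 24.4% lower. Of the members, 4 were higher and 1 was lower by at least 2-fold, against 1.89% and 2.38% of all genes tested. The median log2 fold change was 0.03 over the members and -0.05 over all genes. In 79 members the Stage 2 and Stage 1 libraries did not overlap, against 52.5% of all genes tested. The glutamate carriers SLC1A3 and SLC1A1 and the nucleoside carrier SLC29A1 were among the larger rises, and the chloride importer SLC12A2 had the largest fall.

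At Stage 3+DMSO more carriers were higher than lower against either earlier stage, as was so over all genes tested. Against Stage 2, 47 members were higher and 22 lower, where 44.1% of all genes passed and 33% of all genes were higher and 11.1% lower. Against Stage 1, 50 were higher and 19 lower, where 47.7% of all genes passed, 30.5% higher and 17.3% lower. The medians over the members were 0.14 and 0.17, beside 0.15 and 0.10 over all genes. When each library was rescaled by the median ratio over genes, the medians of all genes moved by -0.15 and -0.10. The members higher and lower were then 29 and 29 against Stage 2 and 39 and 26 against Stage 1. The higher share of the called members thus went to 50% instead of 68.1%, and to 60% instead of 72.5%. Over all called genes that share went to 50.7% instead of 74.9%, and to 48% instead of 63.8%. The libraries did not overlap for 79 and 86 members, where 51.1% and 59% of all genes did not overlap. Against Stage 2, 7 members were higher and 2 lower by at least 2-fold (3.65% and 1.17% of all genes), and against Stage 1, 6 were higher and 3 lower (5.12% and 2.28% of all genes). These comparisons share the Stage 3+DMSO libraries.

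The comparison of KPT with DMSO had the most calls. In Stage 3+KPT, 58 members were higher and 39 lower than in Stage 3+DMSO, 72.9% of the 133, where 60% of all genes passed, 30.5% higher and 29.5% lower. Changes of at least 2-fold were found for 13 members upwards and 15 downwards, where 6.15% and 8.24% of all genes tested moved that far. In 106 members the libraries did not overlap, against 65.2% of all genes. The 13 include SLC16A6, SLC16A9 and SLC16A14, which passed the level filter through the KPT libraries alone. Among the 114 members at RPKM 1 or more in every library, 49 were higher and 36 lower, 8 and 14 of them by at least 2-fold. The median log2 fold change was 0.14 over the members and 0.02 over all genes. The balance was the other way in 30 tested IDs that the gene table does not name as solute carriers but other tables do, of which 8 were higher and 15 lower with KPT (median -0.31). These IDs are not all further genes. They include second IDs of the members SLC1A4, SLC7A1 and SLC26A11 and both IDs of SLC40A1. Of 37 carriers under other family names, 11 were higher and 12 lower (median -0.09). The highest of the 4 group means was in Stage 3+KPT for 65 members, in Stage 3+DMSO for 33, in Stage 2 for 18 and in Stage 1 for 17. The 65 include the 5 members that passed the level filter through the KPT libraries alone. How often each group held the highest mean over all genes was not computed.

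**Figure D1:**
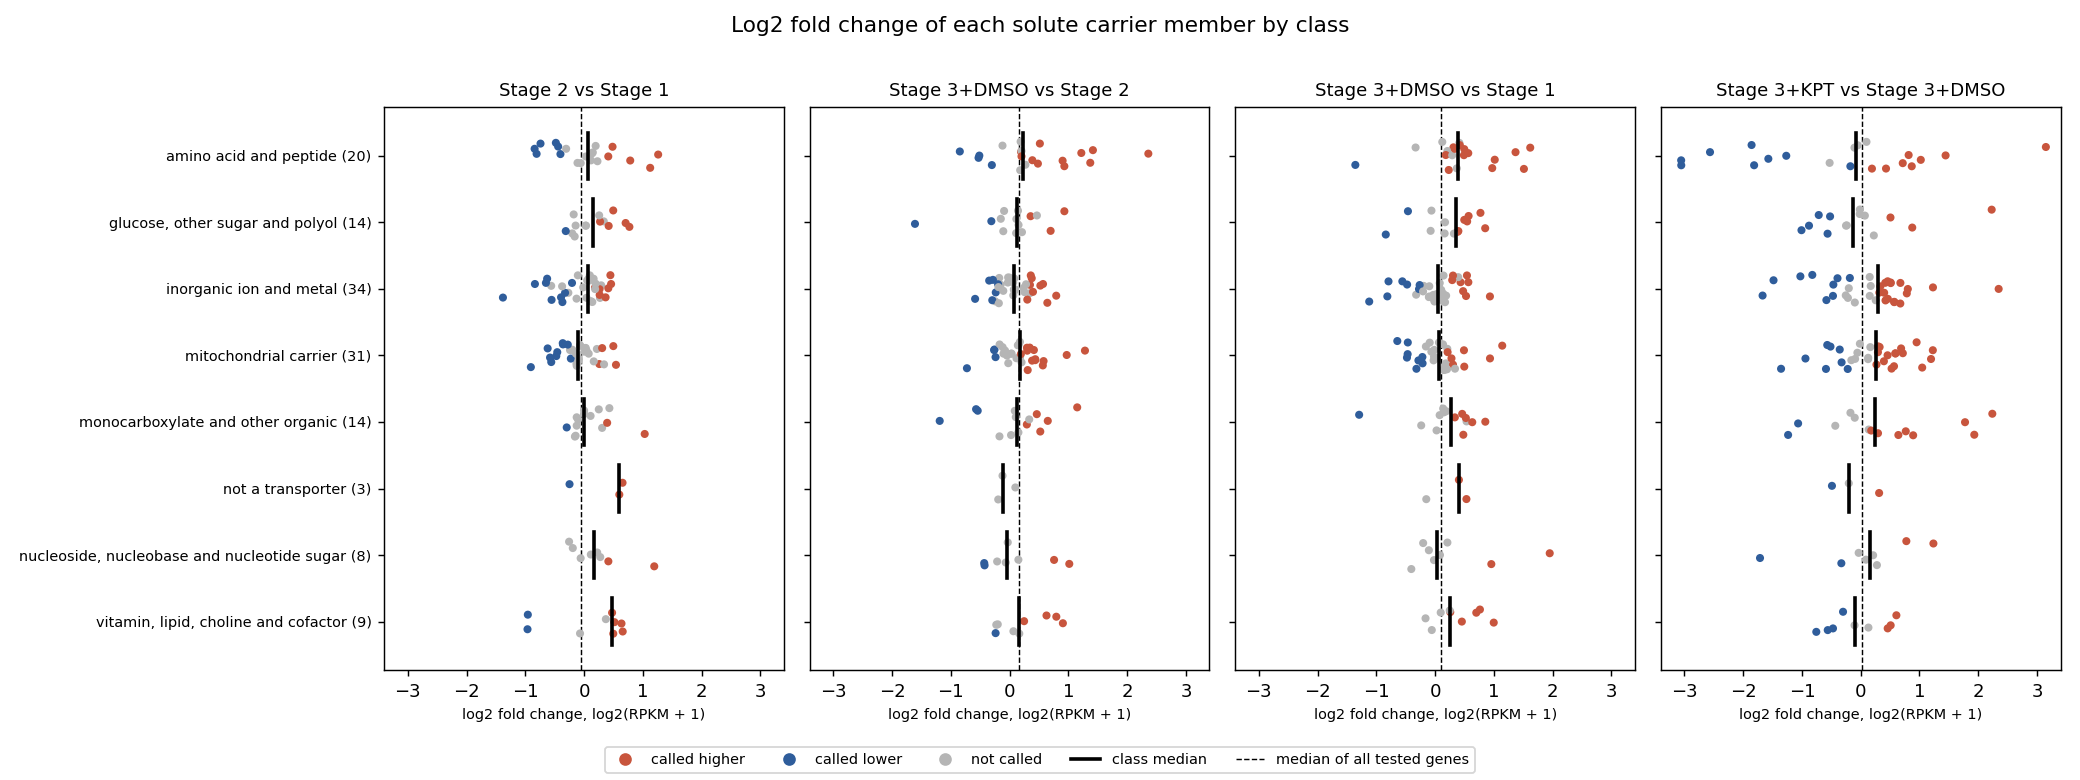
Log2 fold change, on the log2(RPKM + 1) scale, of each of the 133 members by substrate class (rows, with the number of members) in the 4 comparisons (panels). Each point is a gene, red where called higher, blue where called lower and grey where not called; solid bars are class medians and dashed lines the median of all 13046 genes. In the panel for Stage 3+KPT against Stage 3+DMSO the amino acid class spans from -3.05 to 3.15.

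Amino acid carriers had the largest rise and the largest falls with KPT. The summed RPKM of the 20 members of the class was 474 to 493 at Stage 1, 439.7 to 470.2 at Stage 2 and 737 to 802 in Stage 3+DMSO. In Stage 3+KPT it was 413 to 439, below every other library. SLC1A5 and SLC38A5 made up much of the sum in Stage 3+DMSO and little of it in Stage 3+KPT. The sum leaves out carriers that the gene table does not name, so its order holds for the named members only. Among those left out, SLC38A2 was higher with KPT than with DMSO and SLC3A2 was lower. Of the 20 members of the class, 5 (25%) were higher and 6 (30%) lower at Stage 2 than at Stage 1. Of all genes tested, 16.3% and 24.4% were called so. In Stage 3+DMSO, 11 (55%) were higher and 4 (20%) lower than at Stage 2, beside 33% and 11.1% of all genes. After median-ratio rescaling these were 8 and 4, beside 2613 and 2545 of all 13046 genes. In Stage 3+KPT, 8 (40%) were higher and 8 (40%) lower than in Stage 3+DMSO, beside 30.5% and 29.5% of all genes. SLC1A5, SLC1A4, SLC7A1 and SLC38A5 were each lower at Stage 2 than at Stage 1, highest by their means in Stage 3+DMSO and lower again with KPT.

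SLC1A5, the main plasma membrane exchanger for glutamine, had RPKM values of 134, 143 and 126 at Stage 1, 114, 102 and 89.1 at Stage 2 and 285, 271 and 259 in Stage 3+DMSO. In Stage 3+KPT the values were 30.7, 32.2 and 32.7, below every library of the other groups. The log2 fold change was -0.40 ± 0.08 (SE) at Stage 2 against Stage 1 (adjusted p = 0.00212) and 1.42 ± 0.08 in Stage 3+DMSO against Stage 2 (adjusted p = 1.46e-07). With KPT it was -3.05 ± 0.08 against Stage 3+DMSO (adjusted p = 2.38e-11), the largest fall among the members beside that of SLC38A5.

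SLC1A4, an exchanger of alanine, serine, cysteine and threonine, had 27.8, 26.9 and 28.5 RPKM in Stage 3+KPT, against 79.3, 65.00 and 61.1 in Stage 3+DMSO. At Stage 2 it had 12.8, 12.1 and 12.5 RPKM, against 23.03, 21.5 and 20.1 at Stage 1, and no group overlapped with the group before it. Stage 3+DMSO stood 2.36 ± 0.09 log2 units above Stage 2 (adjusted p = 5.49e-09), the largest rise of any member in that comparison, and KPT changed it by -1.27 ± 0.09 (adjusted p = 1.11e-07). The second ID named SLC1A4 moved alike, by 2.12 ± 0.12 and -1.33 ± 0.12, but its difference of -0.31 ± 0.12 between Stage 2 and Stage 1 did not pass the test (adjusted p = 0.0536).

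SLC38A5, a carrier of glutamine, asparagine and histidine, had 15.4, 18.5 and 18.7 RPKM with KPT, against 158, 158 and 141 with DMSO. The difference was -3.05 ± 0.08 (adjusted p = 2.25e-11), and every DMSO library lay far above every KPT library. At Stage 2 it had 85.4, 76.99 and 75.7 RPKM, against 107, 112 and 106 at Stage 1. Carriers of arginine and lysine were lower too. SLC7A1 had 6.34, 6.18 and 6.12 RPKM in Stage 3+KPT, against 21.2, 25.9 and 26.2 in Stage 3+DMSO, a difference of -1.81 ± 0.11 (adjusted p = 2.51e-08). SLC7A2 fell to a level below the filter: it had 0.0934, 0.457 and 0.740 RPKM with KPT, against 7.92, 8.07 and 6.07 with DMSO, from 91 and 1366 reads in all, a difference of -2.56 ± 0.16 (adjusted p = 3.30e-08). SLC7A2 did not pass the test between Stage 2 and Stage 1, with means of 5.89 ± 0.319 and 4.90 ± 0.417 RPKM (SD, n = 3 each; adjusted p = 0.29).

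A pair of glutamate carriers was higher at Stage 2 than at Stage 1. SLC1A1, which carries glutamate and cysteine, had 3.95, 3.15 and 3.26 RPKM at Stage 1, 8.00, 8.87 and 9.21 at Stage 2 and 13.9, 9.25 and 12.2 in Stage 3+DMSO. It was higher at Stage 2 than at Stage 1 by 1.12 ± 0.14 (adjusted p = 6.85e-05), and the Stage 3+KPT values of 2.97, 3.09 and 3.77 RPKM overlapped those of Stage 1 and lay below every Stage 3+DMSO library (-1.57 ± 0.14, adjusted p = 8.91e-07). SLC1A3, a glutamate carrier best known from glial cells, had 14.9, 14.9 and 14.7 RPKM at Stage 2, against 6.43, 4.62 and 5.88 at Stage 1, a rise of 1.26 ± 0.26 (adjusted p = 0.00195). In Stage 3+DMSO its 3 cultures spread widely, with 12.9, 4.37 and 8.07 RPKM. The log2 fold change of -0.85 ± 0.26 against Stage 2 rests on the second of these cultures, without which it was -0.49 and did not pass. With KPT the values were 1.79, 1.27 and 1.25 RPKM, all below every Stage 3+DMSO library (-1.86 ± 0.26, adjusted p = 4.39e-05). SLC1A6, another glutamate carrier, averaged 2.50 ± 0.445 RPKM at Stage 1, 0.946 ± 0.129 at Stage 2 and 0.368 ± 0.189 in Stage 3+DMSO (SD, n = 3 each). It was lower at Stage 2 than at Stage 1, with a log2 fold change of -0.84 ± 0.17 (adjusted p = 0.00164).

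Against these falls, a few neutral amino acid carriers rose with KPT. SLC43A2, a facilitative carrier of leucine, isoleucine, valine and phenylalanine, had the largest rise of any member. It had 73.5, 77.6 and 79.98 RPKM in Stage 3+KPT, against 6.39, 9.80 and 7.47 in Stage 3+DMSO, a difference of 3.15 ± 0.13 (adjusted p = 5.09e-10). At Stage 2 it averaged 6.73 ± 0.714 RPKM and at Stage 1 3.48 ± 0.223 RPKM (SD, n = 3 each). SLC38A1, a sodium-coupled glutamine carrier, had 28.6, 24.2 and 31.8 RPKM with KPT, against 11.4, 9.29 and 8.55 with DMSO (1.45 ± 0.13, adjusted p = 1.05e-06). SLC36A4, which carries proline and tryptophan, had 29.01, 21.3 and 30.5 RPKM with KPT, against 12.6, 15.6 and 14.3 with DMSO (0.87 ± 0.16, adjusted p = 4.34e-04). In each of the 3 genes the KPT libraries lay above all DMSO libraries.

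The amino acid stress response list holds 10 genes, of which 7 gene IDs were tested: SLC1A5, SLC3A2, SLC38A2 and both IDs each of SLC1A4 and SLC7A1. In Stage 3+DMSO, 6 were higher and 1 was lower than at Stage 2, and in Stage 3+KPT 1 was higher and 6 were lower than in Stage 3+DMSO. Of all genes tested, 33% were higher and 11.1% lower in the first of these comparisons, and 30.5% and 29.5% in the other. Several of these genes were known to move in these data when the list was drawn up. SLC3A2, the heavy chain that brings the large neutral amino acid carriers to the membrane, is listed without a symbol in the gene table and is not among the 133. It had 121, 124 and 123 RPKM with KPT, against 263, 257 and 273 with DMSO (-1.10 ± 0.06, adjusted p = 4.95e-09), and 87.5, 88.01 and 79.01 RPKM at Stage 2. SLC38A2, a sodium-coupled carrier of small neutral amino acids, ran the other way. It had 408, 335 and 411 RPKM with KPT, against 133, 125 and 119.8 with DMSO (1.60 ± 0.09, adjusted p = 1.62e-08).

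**Figure D2:**
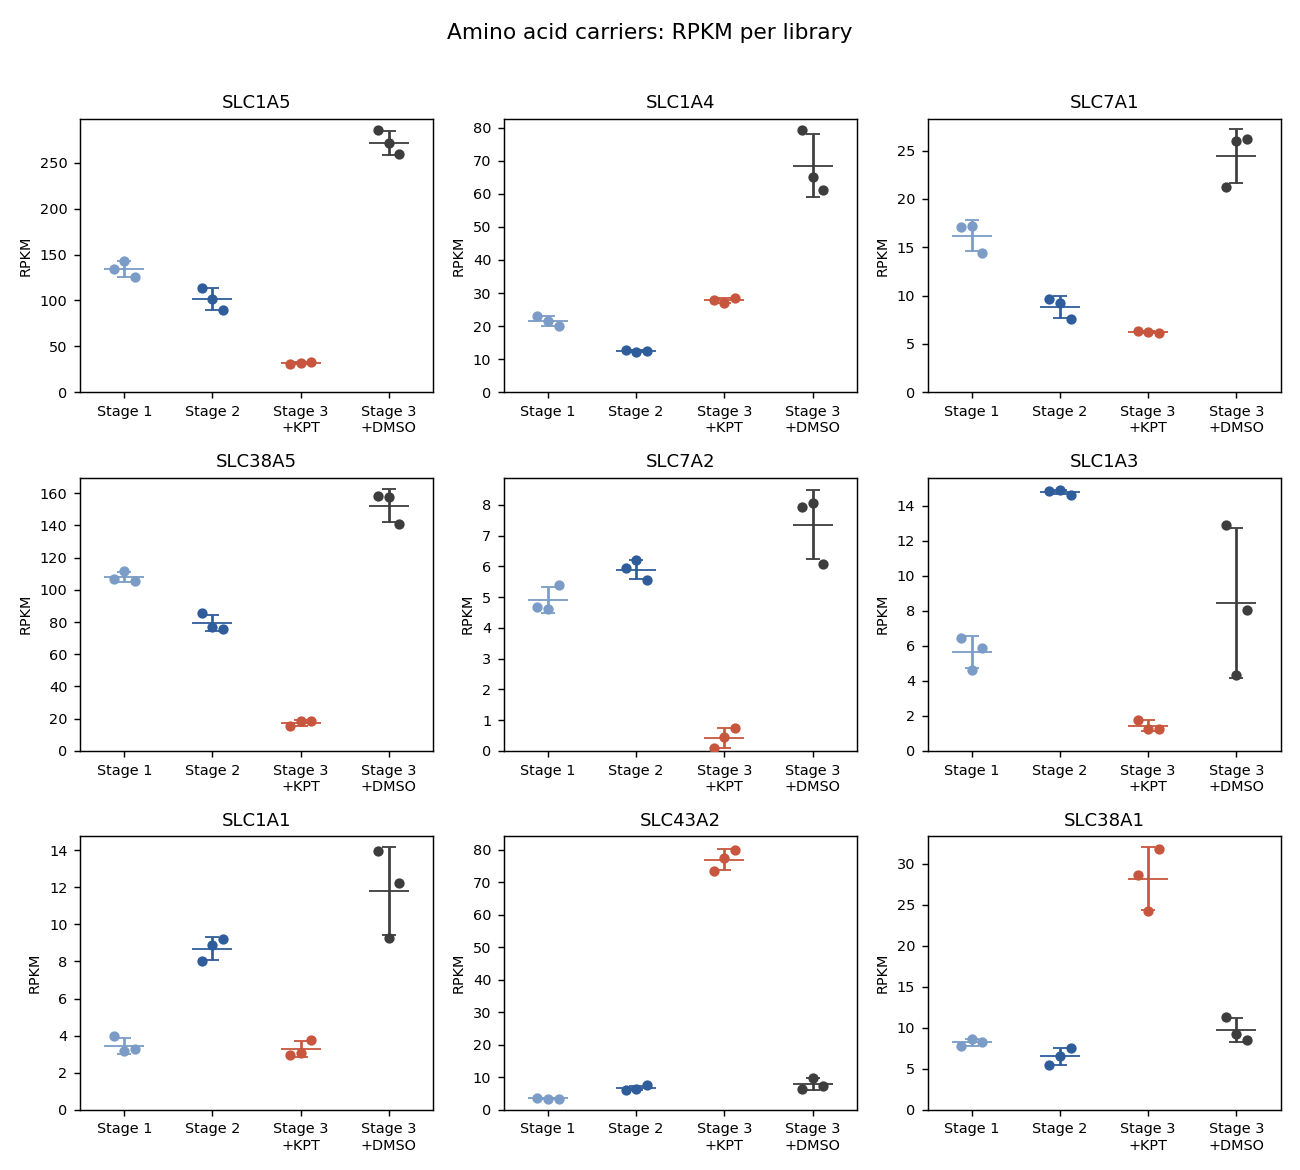
RPKM (linear axis from 0) of 9 amino acid carriers in each of the 12 libraries (points), with the mean (horizontal line) and SD (error bars) of the 3 libraries of each group. SLC1A5, SLC1A4, SLC7A1, SLC38A5 and SLC7A2 are lower in Stage 3+KPT than in Stage 3+DMSO, and SLC43A2 and SLC38A1 are higher.

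Among carriers of sugars and polyols, 3 of 14 (21.4%) were higher and 5 (35.7%) lower in Stage 3+KPT than in Stage 3+DMSO. Of all genes tested, 30.5% and 29.5% were called so. In Stage 3+DMSO, 7 (50%) were higher and 2 (14.3%) lower than at Stage 1, beside 30.5% and 17.3% of all genes. The largest change was in SLC5A3, the sodium-coupled carrier of the osmolyte myo-inositol. SLC5A3 had 1.77, 1.98 and 2.31 RPKM at Stage 1, 2.70, 4.70 and 5.43 at Stage 2 and 1.02, 0.282 and 0.842 in Stage 3+DMSO. The KPT libraries had 7.38, 5.23 and 8.41 RPKM, and the lowest of them was below a single library of the other groups, at Stage 2. Stage 3+DMSO was lower than Stage 2 (-1.61 ± 0.23, adjusted p = 1.41e-04), and KPT stood 2.23 ± 0.23 above DMSO (adjusted p = 3.31e-06). The rise of 0.77 ± 0.23 at Stage 2 against Stage 1 (adjusted p = 0.0179) was lost with an added constant of 0.1 instead of 1, without Stage 1 replicate 1 and without Stage 2 replicate 2 or 3.

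SLC6A6, the taurine carrier and so another osmolyte carrier, is also without a symbol in the gene table. It had 6.28, 4.81 and 5.05 RPKM in Stage 3+KPT, against 1.96, 2.70 and 3.31 in Stage 3+DMSO (0.81 ± 0.14, adjusted p = 2.76e-04), and 20.6, 16.9 and 17.6 RPKM at Stage 2. The osmolyte list had 3 IDs tested, SLC5A3, SLC6A6 and SLC38A2. All 3 were lower in Stage 3+DMSO than at Stage 2 and higher with KPT than with DMSO, 2 of the 3 by at least 2-fold in each comparison. Of all genes tested, 11.1% were lower in the first comparison and 30.5% higher in the other, 1.17% and 6.15% by at least 2-fold. The sugar carriers proper moved less. SLC2A10, a facilitative glucose carrier whose loss causes arterial tortuosity syndrome in humans, had 10.7, 10.7 and 10.9 RPKM in Stage 3+KPT, against 17.5, 18.4 and 19.1 in Stage 3+DMSO (-0.71 ± 0.08, adjusted p = 5.31e-06). It had been higher at Stage 2 than at Stage 1 by 0.71 ± 0.08 (adjusted p = 2.52e-05). SLC50A1, the SWEET-type sugar carrier of the Golgi, averaged 20.4 ± 1.68 RPKM with KPT and 41.9 ± 2.05 with DMSO (SD, n = 3 each; -1.01 ± 0.08, adjusted p = 4.17e-07). SLC37A1, a glucose 6-phosphate exchanger of the endoplasmic reticulum, was higher in Stage 3+DMSO than at Stage 2, at 9.58 ± 0.366 and 4.56 ± 0.454 RPKM (SD, n = 3 each; 0.93 ± 0.10, adjusted p = 2.30e-05).

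The lactate carriers moved in opposite directions in Stage 3+DMSO against Stage 2. SLC16A1, which moves lactate and pyruvate in either direction, had 67.2, 62.8 and 61.4 RPKM at Stage 1, 55.3, 48.1 and 52.1 at Stage 2 and 125, 116 and 107 in Stage 3+DMSO. In Stage 3+KPT the values were 52.9, 43.1 and 50.8 RPKM, so every DMSO library lay above every library of the other groups. The difference was 1.15 ± 0.09 for Stage 3+DMSO against Stage 2 (adjusted p = 9.85e-07) and -1.23 ± 0.09 for KPT against DMSO (adjusted p = 8.85e-08). SLC16A3, the lactate exporter of glycolytic cells, had 234, 256 and 235 RPKM at Stage 1, 254, 228 and 196 at Stage 2 and 76.2, 108 and 114 in Stage 3+DMSO. Stage 3+DMSO was lower than Stage 2 (-1.19 ± 0.13, adjusted p = 2.06e-05). With KPT it had 147, 164 and 150.2 RPKM, above all DMSO libraries and below the early stages (0.64 ± 0.13, adjusted p = 0.00104). Of the 3 genes of a hypoxia list, SLC16A3 was the only one tested.

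SLC16A9, SLC16A6 and SLC16A14, of the same monocarboxylate carrier family, reached an RPKM of 1 only with KPT. SLC16A6 and SLC16A14 had almost all of their reads there. SLC16A9 had 4.86, 3.89 and 4.93 RPKM in Stage 3+KPT, against 0.744, 0.604 and 0.514 in Stage 3+DMSO, from 1181 and 161 reads (1.78 ± 0.14, adjusted p = 2.36e-07). SLC16A6 had 4.21, 3.51 and 3.72 RPKM with KPT, against 0.0513, 0 and 0 with DMSO, from 900 and 4 reads, and 0 reads at Stage 1 and Stage 2. SLC16A14 had 4.37, 2.50 and 3.05 RPKM with KPT, against 0, 0 and 0.365 with DMSO, from 201 and 8 reads. With so few reads in the DMSO libraries, the fitted log2 fold changes of 2.24 and 1.93 depend on the added constant and give no bound on the change (adjusted p = 1.67e-08 and 1.56e-06). Of the 14 members of the class, 8 (57.1%) were higher and 2 (14.3%) lower with KPT, beside 30.5% and 29.5% of all genes tested. SLC16A9, SLC16A6 and SLC16A14 are counted among the 8 although the level filter already required them to differ.

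SLC22A17, a receptor for lipocalin, was highest at Stage 2. It averaged 26.6 ± 1.09 RPKM at Stage 1, 55.3 ± 1.19 at Stage 2 and 36.9 ± 1.26 in Stage 3+DMSO (SD, n = 3 each). Stage 2 was above Stage 1 by 1.03 ± 0.07 (adjusted p = 1.18e-06) and Stage 3+DMSO below Stage 2 (-0.57 ± 0.07, adjusted p = 4.90e-05). The partner glycoproteins and sodium pump subunits form a list of 13 tested IDs, of which 4 were higher and 4 lower with KPT. That is 30.8% in each direction, beside 30.5% and 29.5% of all genes tested. The largest rise was in ATP1B1, a subunit of the pump whose sodium gradient drives many of these carriers, with 195, 172 and 204 RPKM in Stage 3+KPT, against 80.3, 119.6 and 95.1 in Stage 3+DMSO (0.96 ± 0.11, adjusted p = 9.82e-06). The largest change was the other way, in FXYD1, a small membrane protein that regulates the pump, with 26.5, 28.9 and 29.8 RPKM with KPT, against 198, 159.8 and 129 with DMSO (-2.45 ± 0.14, adjusted p = 1.59e-08). Its relative FXYD6 was lower too, at 252 ± 34.5 RPKM with KPT and 474 ± 34.5 with DMSO (SD, n = 3 each; -0.92 ± 0.10, adjusted p = 8.40e-06).

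**Figure D3:**
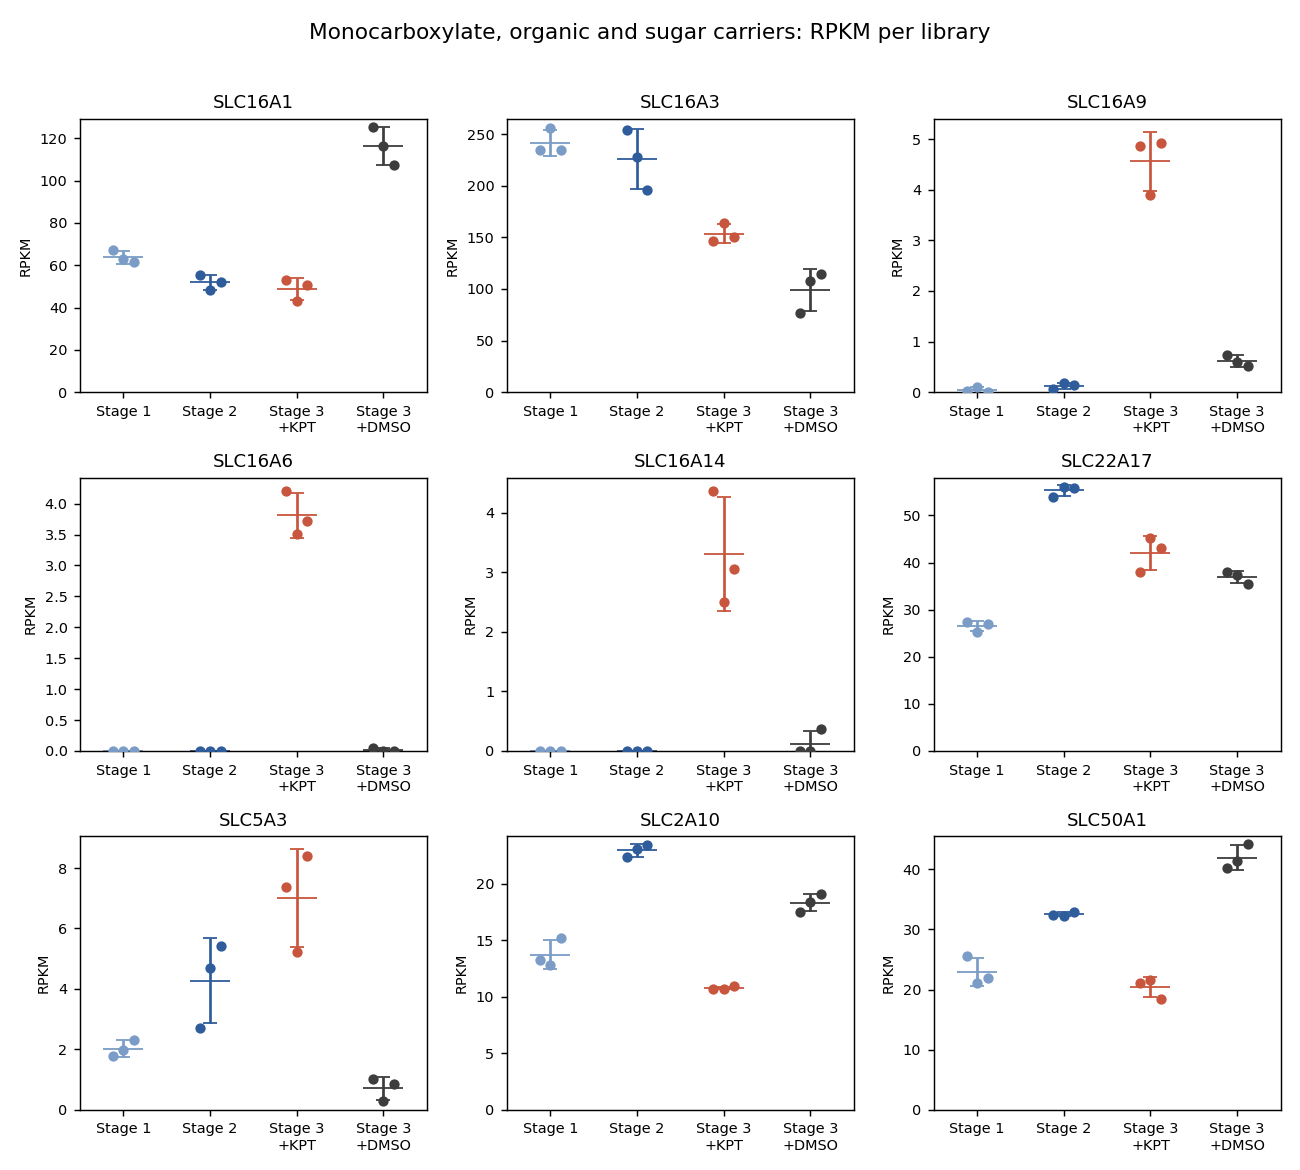
RPKM (linear axis from 0) of 9 monocarboxylate, organic ion and sugar carriers in each of the 12 libraries (points), with the mean (horizontal line) and SD (error bars) of each group of 3. SLC16A1 is highest and SLC5A3 lowest in Stage 3+DMSO, and SLC16A9, SLC16A6 and SLC16A14 stand well above the other groups in Stage 3+KPT.

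Of the 34 ion and metal carriers, 17 (50%) were higher and 9 (26.5%) lower with KPT than with DMSO, beside 30.5% and 29.5% of all genes tested. The median log2 fold change was 0.29 over the class and 0.02 over all genes. At Stage 2, 7 (20.6%) were higher and 9 (26.5%) lower than at Stage 1, beside 16.3% and 24.4% of all genes. In Stage 3+DMSO, 9 (26.5%) were higher and 6 (17.6%) lower than at Stage 2, beside 33% and 11.1% of all genes. After median-ratio rescaling these turned to 3 and 9, beside 2613 and 2545 of all 13046 genes. SLC12A2, which imports sodium, potassium and chloride and sets cell volume, had 43.8, 43.98 and 47.1 RPKM at Stage 1, 14.6, 17.2 and 18.3 at Stage 2 and 18.7, 31.4 and 26.9 in Stage 3+DMSO. With KPT it had 138, 122 and 137 RPKM, more than in any other library. Stage 2 was lower than Stage 1 (-1.38 ± 0.14, adjusted p = 1.87e-05), the largest fall of any member in that comparison. Stage 3+DMSO was above Stage 2 by 0.57 ± 0.14 (adjusted p = 0.00696), and KPT stood 2.35 ± 0.14 above DMSO (adjusted p = 2.56e-08).

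SLC4A7, which brings in sodium and bicarbonate and so raises the pH of the cell, had 7.24, 7.57 and 8.36 RPKM at Stage 2, against 14.4, 14.3 and 15.04 at Stage 1 (-0.84 ± 0.10, adjusted p = 3.95e-05). It averaged 8.87 ± 0.650 RPKM with KPT and 6.17 ± 0.705 with DMSO (SD, n = 3 each; 0.46 ± 0.10, adjusted p = 0.0012). SLC24A3, a calcium exporter driven by sodium and potassium, had 1.82, 1.61 and 1.15 RPKM in Stage 3+KPT, against 7.30, 6.45 and 7.22 in Stage 3+DMSO. The difference of -1.67 ± 0.15 was the largest fall in the class (adjusted p = 7.41e-07), and Stage 3+DMSO had stood 0.93 ± 0.15 above Stage 1 (adjusted p = 2.28e-04). SLC26A2, the sulphate carrier that cartilage needs for its proteoglycans, did not pass that test, with 9.80 ± 0.916 RPKM with KPT and 11.5 ± 0.984 with DMSO (SD, n = 3 each; adjusted p = 0.148).

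Zinc carriers fall into importers to the cytosol, the SLC39 family, and exporters from it, the SLC30 family. SLC39A14, which also carries iron and manganese, had 43.99, 41.7 and 44.9 RPKM in Stage 3+KPT, against 22.1, 27.7 and 24.1 in Stage 3+DMSO (0.80 ± 0.08, adjusted p = 2.35e-06). In none of the comparisons between stages did it pass the test. SLC39A6 had 48.4, 52.5 and 55.9 RPKM in Stage 3+DMSO, against 27.2, 31.2 and 30.9 at Stage 2 (0.79 ± 0.07, adjusted p = 5.76e-06). SLC30A1, the zinc exporter of the plasma membrane, did not pass the test in any comparison, with 18.5 ± 0.580 RPKM with KPT and 16.97 ± 4.85 with DMSO (SD, n = 3 each; adjusted p = 0.432).

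Other ion carriers were chosen for their values after these were seen. SLC30A6 and SLC30A5, which together load zinc into the secretory pathway, were both higher with KPT. SLC30A6 had 24.01, 22.5 and 37.6 RPKM with KPT, against 11.1, 11.8 and 10.3 with DMSO (1.23 ± 0.23, adjusted p = 5.06e-04), and SLC30A5 had 105, 96.9 and 103 RPKM, against 72.7, 61.8 and 70.5 (0.57 ± 0.11, adjusted p = 6.37e-04). SLC39A1, a zinc importer, had 111, 123 and 112 RPKM with KPT, against 149, 164 and 164 with DMSO (-0.46 ± 0.06, adjusted p = 2.30e-05). SLC39A13, a zinc carrier needed for connective tissue in humans and mice, had 27.2, 30.7 and 25.9 RPKM, against 39.4, 41.8 and 45.8 (-0.58 ± 0.08, adjusted p = 3.94e-05). SLC39A1 and SLC39A13 were thus lower with KPT, as SLC41A2 was, while the zinc carriers SLC30A6, SLC30A5 and SLC39A14 were higher. SLC41A2, a magnesium carrier, had 15.9, 14.9 and 14.05 RPKM with KPT, against 40.3, 43.6 and 47.1 with DMSO (-1.48 ± 0.08, adjusted p = 4.67e-09). SLC26A11, a sulphate and chloride carrier, had 57.98, 66.2 and 62.4 RPKM with KPT, against 33.8, 37.1 and 36.1 with DMSO (0.79 ± 0.07, adjusted p = 1.03e-06). In all these genes the KPT and DMSO libraries did not overlap.

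SLC40A1, the only known iron exporter of animal cells, is named through other tables and is not among the 133. It has a pair of IDs. The first had 237, 287 and 296 RPKM at Stage 2, against 154, 147 and 159 at Stage 1, and the other had 309, 386 and 392 RPKM at Stage 2, against 206, 188 and 213 at Stage 1. Both IDs were higher at Stage 2 (each by 0.83, adjusted p = 2.58e-04 and 5.18e-04), lower in Stage 3+DMSO than at Stage 2 (-0.72 and -0.75, adjusted p = 5.41e-04 and 9.20e-04) and lower with KPT than with DMSO (-0.55 and -0.57, adjusted p = 0.00199 and 0.00323).

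**Figure D4:**
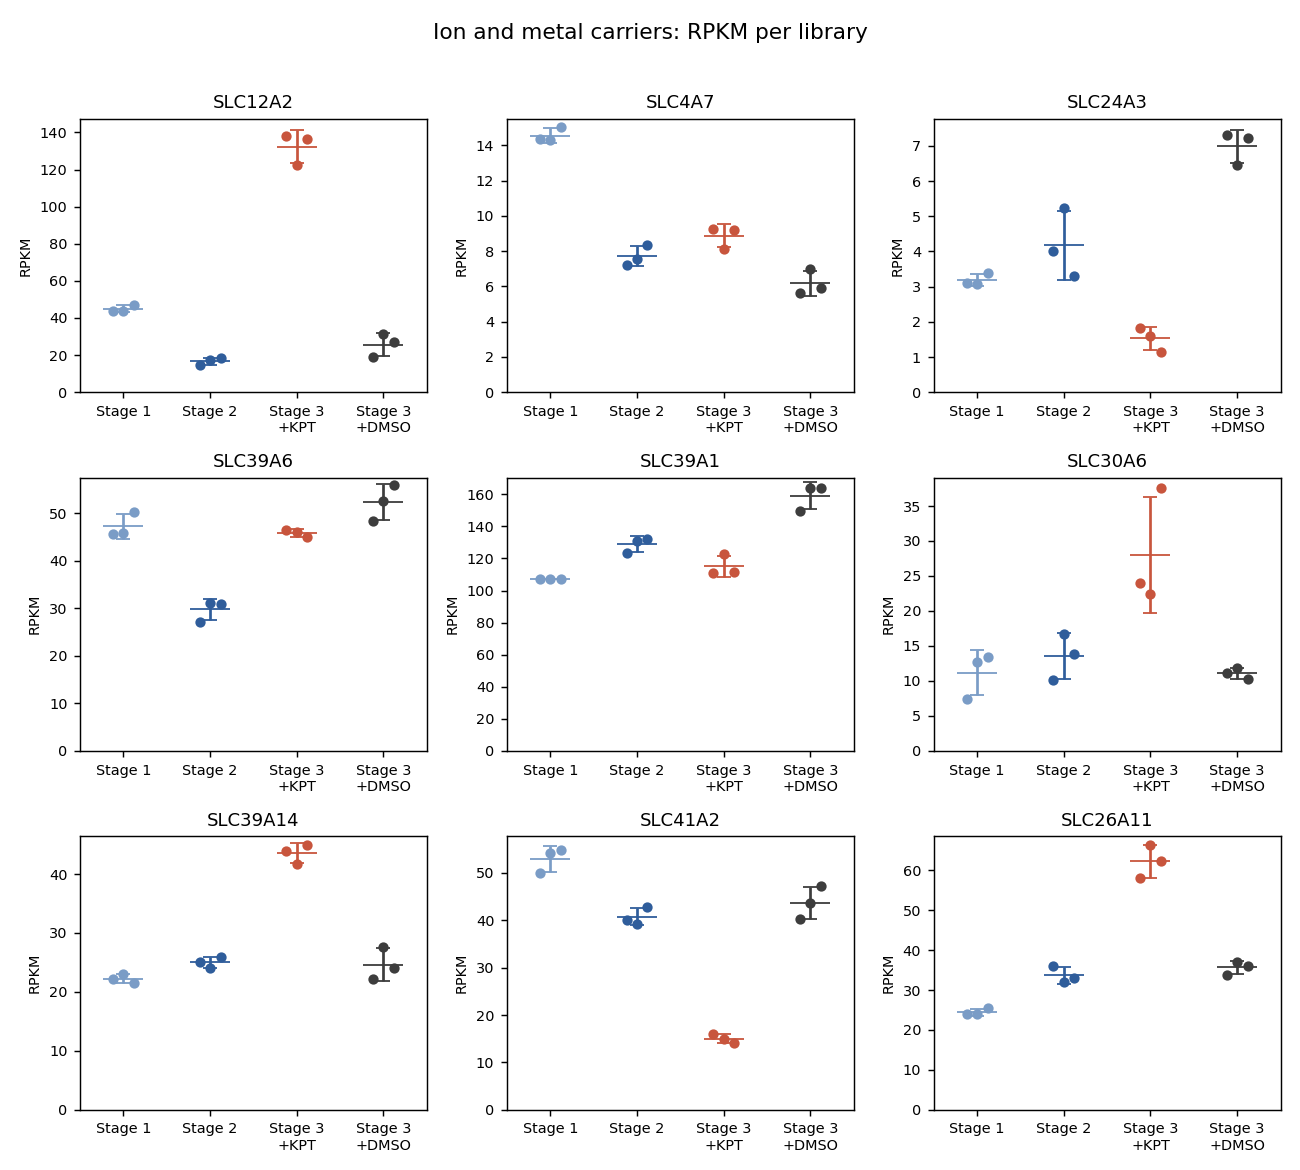
RPKM (linear axis from 0) of 9 ion and metal carriers in each of the 12 libraries (points), with the mean (horizontal line) and SD (error bars) of each group of 3. SLC12A2, SLC30A6, SLC39A14 and SLC26A11 are higher in Stage 3+KPT than in Stage 3+DMSO, and SLC24A3 and SLC41A2 are lower.

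Of the 31 mitochondrial carriers, 4 (12.9%) were higher and 10 (32.3%) lower at Stage 2 than at Stage 1. Of all genes tested, 16.3% and 24.4% were called so. In Stage 3+DMSO, 13 (41.9%) were higher and 4 (12.9%) lower than at Stage 2, beside 33% and 11.1% of all genes. After median-ratio rescaling these were 8 and 5, beside 2613 and 2545 of all 13046 genes. With KPT, 16 (51.6%) of the carriers were higher and 8 (25.8%) lower than with DMSO, beside 30.5% and 29.5% of all genes. Their summed RPKM was 1993 to 2076 in Stage 3+KPT, against 1716 to 1783 in Stage 3+DMSO. SLC25A3 alone made up much of that sum and passed the test in none of the 4 comparisons, with 925, 889 and 844 RPKM with KPT and 816, 837 and 781 with DMSO. SLC25A4, which exchanges ADP for ATP, had 92.9, 102 and 90.9 RPKM with KPT, against 72.9, 71.8 and 71.5 with DMSO (0.40 ± 0.08, adjusted p = 6.14e-04). Its rise of 0.30 ± 0.08 in Stage 3+DMSO against Stage 2 was lost under the rescaling by median ratio.

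SLC25A1, which exports citrate from mitochondria for lipid synthesis, had 65.99, 76.8 and 66.02 RPKM in Stage 3+KPT, against 95.4, 107 and 109 in Stage 3+DMSO (-0.57 ± 0.09, adjusted p = 1.49e-04). Stage 3+DMSO was itself below Stage 2, where the values were 193, 169 and 156 RPKM (-0.73 ± 0.09, adjusted p = 5.15e-05). SLC25A20, which brings fatty acids in as acylcarnitine, was higher instead. It had 17.9, 15.7 and 17.5 RPKM at Stage 1, 25.4, 23.9 and 23.9 at Stage 2 and 33.8, 33.5 and 32.7 in Stage 3+DMSO, with no overlap between stages, and 51.00, 49.5 and 51.6 RPKM with KPT. Stage 3+DMSO was above Stage 1 by 0.93 ± 0.07 (adjusted p = 2.78e-07) and KPT above DMSO by 0.59 ± 0.07 (adjusted p = 5.99e-06).

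SLC25A33, a carrier of pyrimidine nucleotides, had 39.1, 38.9 and 36.5 RPKM with KPT, against 14.98, 15.7 and 16.5 with DMSO (1.23 ± 0.11, adjusted p = 7.04e-07). SLC25A25, which exchanges ATP-magnesium for phosphate under calcium control, had 34.1, 37.1 and 32.1 RPKM with KPT, against 12.3, 18.6 and 22.4 with DMSO (0.95 ± 0.16, adjusted p = 1.83e-04). It was lower at Stage 2 than at Stage 1, at 8.32 ± 0.157 and 16.5 ± 0.891 RPKM (SD, n = 3 each; -0.91 ± 0.16, adjusted p = 6.55e-04). The mitoferrins SLC25A28 and SLC25A37, which bring iron into mitochondria for heme and iron-sulphur clusters, were chosen after their values were seen. SLC25A28 had 67.8, 74.9 and 71.9 RPKM with KPT, against 31.3, 29.1 and 31.4 with DMSO (1.20 ± 0.07, adjusted p = 2.36e-08), and SLC25A37 had 41.04, 46.5 and 45.5 RPKM, against 21.3, 19.5 and 22.1 (1.05 ± 0.08, adjusted p = 1.15e-07). In all 4 genes the KPT libraries lay above every other library.

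SLC25A13, which exchanges aspartate for glutamate, had 20.6, 18.5 and 17.9 RPKM at Stage 2, against 28.9, 29.99 and 30.4 at Stage 1 (-0.62 ± 0.09, adjusted p = 2.70e-04), and stayed near that level in Stage 3+DMSO (18.7 ± 1.08 RPKM; SD, n = 3). SLC25A47, a carrier known from liver, was low but rose in Stage 3+DMSO, at 6.25, 5.31 and 7.19 RPKM, against 1.74, 1.69 and 2.53 at Stage 2 (1.28 ± 0.19, adjusted p = 1.69e-04). With KPT it had 2.21, 1.69 and 1.60 RPKM, within the range of Stage 1 (-1.35 ± 0.19, adjusted p = 4.61e-05).

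Of the 8 carriers of nucleosides and nucleotide sugars, 2 (25%) were higher and 2 (25%) lower with KPT, beside 30.5% and 29.5% of all genes. SLC29A1, the main nucleoside and adenosine carrier of the plasma membrane, had 11.3, 12.00 and 9.80 RPKM at Stage 1, 26.4, 27.2 and 25.8 at Stage 2 and 34.9, 47.6 and 56.1 in Stage 3+DMSO, without overlap at either step. Stage 2 was above Stage 1 by 1.19 ± 0.13 (adjusted p = 3.08e-05) and Stage 3+DMSO above Stage 1 by 1.95 ± 0.13 (adjusted p = 2.55e-07), the largest rise of any member in that comparison. Stage 3+KPT had 13.1, 13.4 and 12.95 RPKM (-1.71 ± 0.13 against DMSO, adjusted p = 2.48e-07). SLC29A3, its lysosomal relative, was higher in Stage 3+DMSO than at Stage 2, at 7.51 ± 0.808 and 3.20 ± 0.171 RPKM (SD, n = 3 each; 1.01 ± 0.11, adjusted p = 1.86e-05). SLC35A1, which brings CMP-sialic acid into the Golgi, had 112, 93.9 and 110.4 RPKM with KPT, against 49.8, 42.5 and 40.2 with DMSO (1.24 ± 0.12, adjusted p = 2.64e-06). Between stages SLC35A1 did not pass, with 46.7 ± 8.91 RPKM at Stage 2 and 37.97 ± 1.74 at Stage 1 (SD, n = 3 each; adjusted p = 0.0982).

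Of the 9 carriers of vitamins, lipids and choline, 5 (55.6%) were higher and 2 (22.2%) lower at Stage 2 than at Stage 1. With KPT, 3 (33.3%) were higher and 4 (44.4%) lower than with DMSO. Of all genes tested, 16.3% were higher and 24.4% lower at Stage 2, and 30.5% and 29.5% with KPT. SLC44A2, a choline carrier and the second most abundant member, had 252, 246 and 256 RPKM at Stage 1, 348, 367 and 366 at Stage 2 and 382, 447 and 457 in Stage 3+DMSO. With KPT it had 251, 263 and 245 RPKM, overlapping Stage 1 and below every DMSO library (-0.75 ± 0.07, adjusted p = 7.45e-07). The vitamin carriers SLC19A2, for thiamine, and SLC5A6, for biotin and pantothenate, dipped at Stage 2. SLC19A2 averaged 2.17 ± 0.271 RPKM at Stage 2 and 5.16 ± 0.412 at Stage 1 (-0.96 ± 0.14, adjusted p = 2.04e-04), and SLC5A6 averaged 7.49 ± 0.616 and 15.5 ± 0.798 RPKM (-0.96 ± 0.08, adjusted p = 4.83e-06; SD, n = 3 each). Both were higher again in Stage 3+DMSO than at Stage 2 and higher still with KPT than with DMSO, by 0.51 ± 0.14 and 0.61 ± 0.08 (adjusted p = 0.00717 and 4.22e-05). Without Stage 3+DMSO replicate 1 the SLC19A2 difference with KPT was 0.34. SLC46A1, a folate carrier, had 3.53 ± 0.0735 RPKM at Stage 2 and 1.88 ± 0.279 at Stage 1 (SD, n = 3 each; 0.66 ± 0.12, adjusted p = 8.54e-04). SLC27A3, of the fatty acid carrier family, averaged 9.41 ± 1.11 RPKM in Stage 3+DMSO and 4.20 ± 0.358 at Stage 1 (SD, n = 3 each; 1.00 ± 0.14, adjusted p = 1.18e-04).

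**Figure D5:**
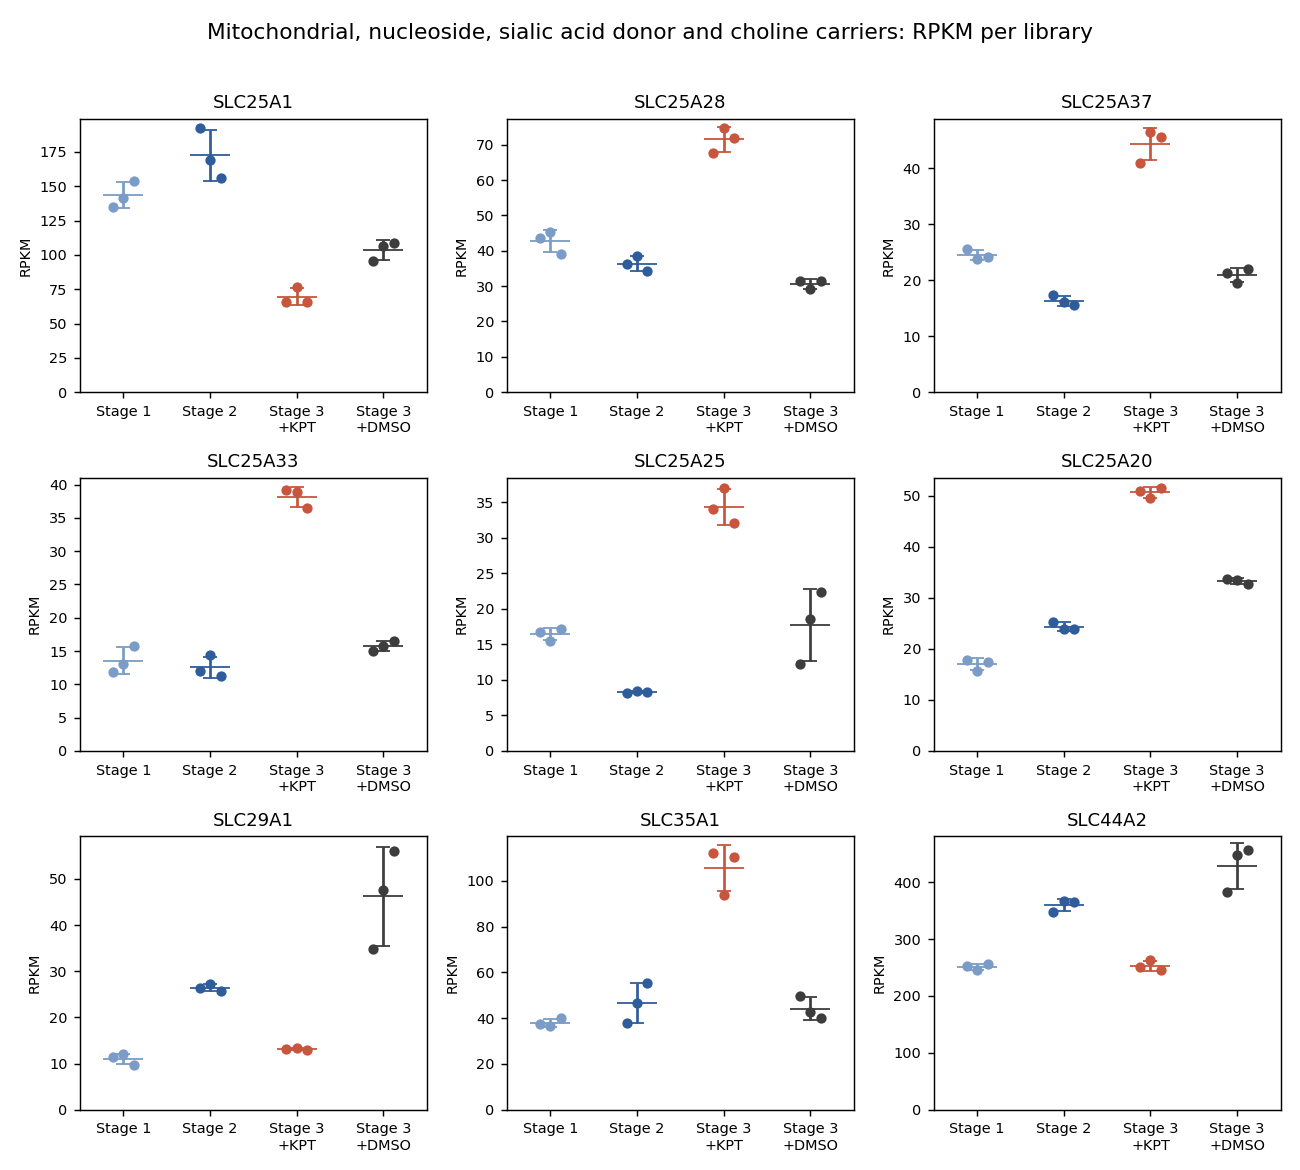
RPKM (linear axis from 0) of 6 mitochondrial carriers, the nucleoside carrier SLC29A1, the CMP-sialic acid carrier SLC35A1 and the choline carrier SLC44A2 in each of the 12 libraries (points), with the mean (horizontal line) and SD (error bars) of each group of 3. SLC25A28, SLC25A37, SLC25A33, SLC25A25, SLC25A20 and SLC35A1 are highest in Stage 3+KPT, and SLC25A1, SLC29A1 and SLC44A2 are lower there than in Stage 3+DMSO.

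Among the 3 adaptor proteins, SLC9A3R1 and SLC9A3R2, which anchor membrane proteins to the cell cortex, were higher at Stage 2 than at Stage 1, by 0.65 ± 0.13 and 0.60 ± 0.13 (adjusted p = 0.00135 and 0.00333), and SLC9A3R1 was lower with KPT than with DMSO, at 4.25 ± 0.158 and 6.40 ± 1.00 RPKM (SD, n = 3 each; -0.49 ± 0.13, adjusted p = 0.00482).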

How the data were processed

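RNA of 12 cultures of pig aortic valve interstitial cells was isolated with an RNeasy kit, and 500 ng per library went into the TruSeq Stranded mRNA kit, per the labels' protocols. The submitters' processing notes name TopHat2 2.1.0. Neither labels nor headers name a counter, a genome build or an annotation release. RPKM values were deposited by the authors per gene and per exon with gene IDs, and only the gene table was tested. Multiplied by exon length and library total, every value came out as a whole number of reads (tolerance 0.0001), between 23287593 and 43293744 per library and 1.75 to 1.81 times the total used for scaling. No intervals were computed from these reads, which are not independent molecules.

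Genes with RPKM of at least 1 in at least 3 libraries were tested with limma 3.58.1 (R 4.3.3, trend) on log2(RPKM + 1) in 1 fit of all 12 libraries. The 4 comparisons were Stage 2 against Stage 1, Stage 3+DMSO against Stage 2 and against Stage 1, and Stage 3+KPT against Stage 3+DMSO. The fit was tested on simulated data in which a small set of genes changed, in Stage 3+KPT only. That simulation held no shift over all genes, so it does not bear on the shifts between groups seen here. The 19 alternatives were a pseudocount of 0.1, no filter, a minimum RPKM of 5, median-ratio rescaling, a replicate block, leaving out each library, limma-voom on the recovered reads and leaving out replicate 1 of every group; the last 2 were chosen after seeing the data.

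Members, classes and lists were chosen with earlier results of these data known. Genes were named if called, without overlap and among the 8 largest rises or falls, if among the 2 largest calls of their class, or if on a panel of carriers. Of the 133 members, 111 had a symbol in a separate table of IDs, and 30 tested IDs outside the list are solute carriers by such tables.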

Additional observations from a re-analysis of the deposited data

How the results depend on the processing

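The counts of members called kept within 1.5 times their values under all 19 alternatives, except that the 47 members higher in Stage 3+DMSO than at Stage 2 became 29 under median-ratio rescaling. All 29 were among the 47, and the 22 lower members were all kept. Leaving out 1 library gave 24 to 33 higher and 26 to 31 lower members for Stage 2 against Stage 1, 38 to 47 and 16 to 22 for Stage 3+DMSO against Stage 2, 40 to 50 and 14 to 22 for Stage 3+DMSO against Stage 1, and 52 to 58 and 36 to 40 for Stage 3+KPT against Stage 3+DMSO. With limma-voom on the recovered reads, 58 of 58 higher and 36 of 39 lower calls of the last comparison were kept. No named result changed sign. Of 114 named calls, 97 held under every alternative that tested them and 17 were lost under at least 1, SLC19A1 in Stage 3+DMSO against Stage 2 under 11 of them; 14 results not called became called under at least 1. A replicate block gave 29 higher and 30 lower, 45 and 22, 49 and 18, and 56 and 37 members in the 4 comparisons; same-numbered libraries of different groups had correlations of -0.13 to 0.07 over 18 pairs, so the numbers were not taken to pair the cultures. Low counts limit the genes near the filter, such as SLC16A14, SLC7A4 and SLC6A15, each with 0 reads in at least 1 group.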

Other observations

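Values outside the comparisons above concern members near the detection limit. SLC7A4, an amino acid carrier relative, had 0, 0 and 0 reads at Stage 1, 0, 7 and 8 at Stage 2 and 119, 37 and 78 in Stage 3+DMSO, and 23, 55 and 34 with KPT. SLC6A15, a carrier of branched-chain amino acids known from neurons, had 0, 0 and 0 reads at Stage 2 and 2, 3 and 6 at Stage 1, and 43, 118 and 129 with KPT, against 14, 15 and 31 with DMSO. SLC29A4, a monoamine carrier of the nucleoside carrier family, had 27, 60 and 63 reads with KPT, against 5, 16 and 19 with DMSO.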
